A study of Danio rerio with 24 samples.

Results

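Gene expression was compared between endodermal cells of DMSO-treated zebrafish embryos at the 8-somite stage (8-S, 3 libraries) and at the 3-somite stage (3-S, 3 libraries). These 6 libraries were chosen by their labels out of 24. All embryos came from an incross of the Tg(sox17:GFP) line, in which the sox17 promoter drives GFP, and were grown at 23 degrees. Endodermal cells are the GFP+ fraction of a cell sort, and non-endodermal (NE) cells are the GFP− fraction of DMSO-treated embryos, also with 3 libraries at 8-S and 3 at 3-S. Endodermal cells of embryos given retinoic acid (RA) or BMS493, an inverse agonist of the RA receptors, make up the other 12 libraries, with 3 at each stage for each agent. DMSO is the solvent of both agents, and every embryo received 1 of the 3 treatments until 3-S. By the study's methods the embryos collected at 8-S had by then been washed and raised without it. The labels number the replicates 1 to 3 but do not state separate clutches or sorts, so a p-value measures only the spread between these samples.

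The endoderm forms the lining of the pharynx and gut and gives rise to the liver and pancreas. In zebrafish its precursors are specified in response to Nodal signals through the transcription factors Sox32 and Sox17, spread over the yolk during gastrulation as scattered cells, and then gather at the midline while Foxa and Gata factors mark the sheet that will become gut. During early somite stages the sheet is divided along the head-to-tail axis by signals that include RA, and regional regulators such as pdx1 in the pancreas field and pax1b in the pharynx come on. The cells next to it are the paraxial mesoderm, which is being cut into somites under the control of oscillating her genes, the notochord and the neural plate.

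Total gene counts lay between 10554382 and 13591962 in the DMSO 8-S libraries and between 11650912 and 15432052 in the DMSO 3-S libraries. Values given below are normalised counts, that is, counts divided by the size factor of the library, and differences are log2 ratios of 8-S over 3-S with their standard error (SE). Levels of sox17 followed the sort, which used GFP driven by its promoter, so they are no independent check of identity. sox17 had 8778, 7542 and 4464 normalised counts in DMSO 8-S cells and 11954, 8496 and 11519 in DMSO 3-S cells, against 43.8 to 59.7 in NE 8-S cells and 26.6 to 97.3 in NE 3-S cells. The third and the second DMSO 3-S library differed from each other by a chi-square per degree of freedom of 23.8, while the first differed from them by 135 and 160. The first also stood apart in the summed level of 14 epidermal marker genes, 8819 normalised counts against 2443 and 2190 in the other DMSO 3-S libraries. A single gene, ENSDARG00000080337, took 27.1% ± 0.15 of the counts at 8-S and 19.4% ± 1.4 at 3-S (SD, n = 3 each, exact two-sided permutation p = 0.1, the smallest that 3 against 3 can give). Reads on the strand of the first strand-specific column made up 49.8% to 50.2% of the stranded counts in the 8-S libraries of all treatments and 50.6% to 52.6% in the 3-S libraries, and the effects of stage and of library preparation cannot be told apart.

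Between the stages 44 of 15135 genes tested changed at an adjusted p under 0.01 (DESeq2), which is 0.291% of genes. Of these, 37 were higher at 8-S (0.244%) and 7 were lower (0.0463%). The genes that rose include markers of paraxial mesoderm and tailbud (msgn1, her1, her7, pcdh8), muscle genes (MYOD1, NEXN) and genes of the gut epithelium (cldn15a, slc7a9). They also include neural genes (neurod, neurog1, pax6a, ZIC5), of which neurod acts in pancreatic endocrine cells as well. The genes that fell include a DNA methyltransferase, an intramembrane protease and a retinoid X receptor. The 33 higher genes that had counts at 3-S rose by 1.36 to 4.32 on the log2 scale, and the median over all 37 was 2.86, or 2.75 with the 4 genes at 0 at 3-S set at their lower bound. The 7 lower genes had between 0.254 and 0.418 of their 3-S mean. The median over all genes tested was -0.01. Without adjustment, 895 genes were higher and 795 lower at p under 0.05 (DESeq2). These counts are over all 33737 genes listed, also those outside the 15135 tested. In simulated counts, described below, DESeq2 called more unchanged genes than its threshold allows, so its adjusted p may be too small. The 3 values at 8-S and the 3 at 3-S did not overlap for 35 of the 37 higher genes and for 7 of the 7 lower genes. Such separation was seen for 7.25% and 5.98% of the genes whose mean reached 10. The 44 genes were picked by a test on these same values, so their separation follows from the choice and is no added support. The quasi-likelihood test of edgeR called 0 genes at 0.01 and 4 at an adjusted p under 0.1, with 1303 of 16800 genes at an unadjusted p under 0.05, and the adjusted p it gave to the 44 genes ranged from 0.0317 to 0.274. With 1 library left out the DESeq2 count was 42 without DMSO 3-S replicate 1 (30 higher and 12 lower, of which 16 are among the 44), 20 without DMSO 3-S replicate 2, 9 without DMSO 3-S replicate 3, 19 without DMSO 8-S replicate 1, 28 without DMSO 8-S replicate 2 and 18 without DMSO 8-S replicate 3. A fit of the 6 compared libraries alone gave 56 genes (40 higher and 16 lower), 26 of them among the 44. The calls for has2, msgn1, neurod and hsp90aa1.1 were kept in each of these 6 fits, and the other 40 genes lost the call in at least 1 of them, while no named gene among them changed direction.

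**Figure D1:**
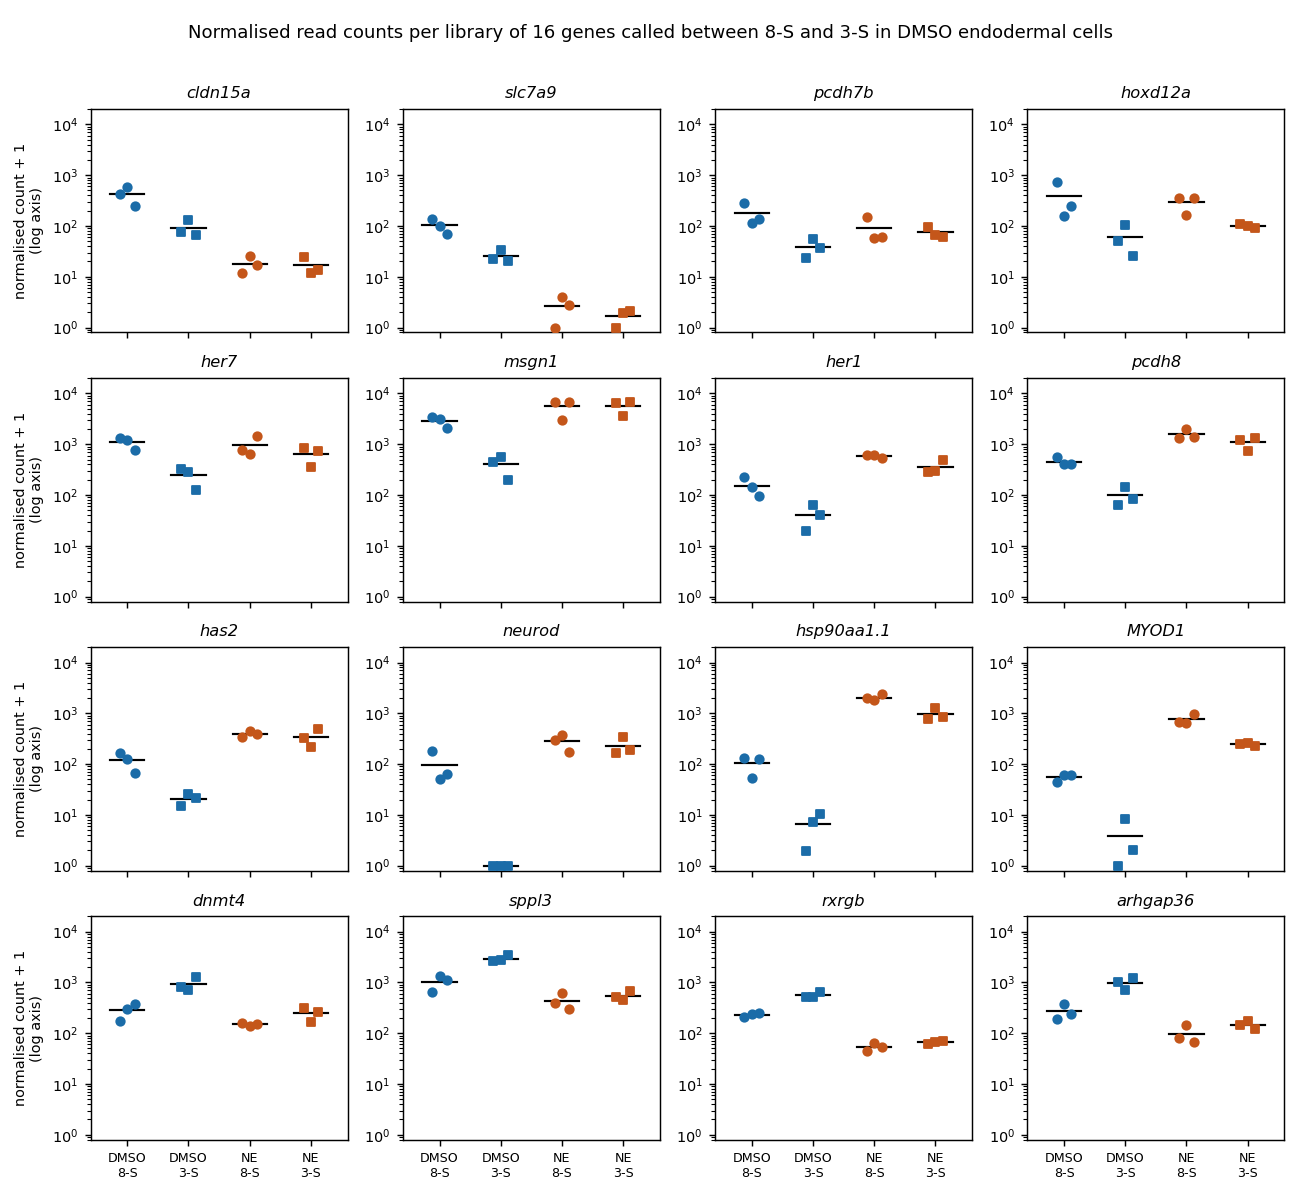
Normalised counts plus 1 (log axis) of 16 genes in each library of DMSO 8-S, DMSO 3-S, NE 8-S and NE 3-S cells, with a bar at the mean of the 3 libraries. cldn15a and slc7a9 are far lower in NE cells than in DMSO cells at either stage, whereas MYOD1 and hsp90aa1.1 in DMSO 8-S cells stay far below NE cells.

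Both cldn15a and slc7a9, genes of the gut epithelium, rose, and both were more abundant than in NE cells at either stage. cldn15a (ENSDARG00000036463), a claudin of the intestinal tight junctions that takes part in opening the gut lumen in zebrafish, had 429, 580 and 242 normalised counts in DMSO 8-S cells and 75.8, 127 and 65.7 in DMSO 3-S cells. The 3 values at 8-S all exceeded those at 3-S, and the rise was 2.22 ± 0.50 (SE) with a DESeq2 adjusted p of 0.00468. It was the 1 of 13 liver and gut functional genes tested that rose, and 0 fell (list median -0.25). At an unadjusted p under 0.05 (DESeq2) 1 was higher and 3 were lower, and 6 of the 13 had a difference above 0. The summed level of the list was 68554, 42240 and 45436 normalised counts at 8-S, below the 73880, 69036 and 69297 at 3-S. slc7a9 is not in that list. In NE cells cldn15a stayed between 11 and 24.4 at both stages, so that its mean in DMSO 8-S cells was 24.3 times that in NE 8-S cells. slc7a9 (ENSDARG00000005894), the light subunit of a cystine and basic amino acid transporter of gut and kidney epithelia, had 135, 100 and 69.8 normalised counts in DMSO 8-S cells against 19.8 to 33.1 in DMSO 3-S cells. It rose by 2.04 ± 0.41 (DESeq2 adjusted p = 0.00105), and its mean in DMSO 8-S cells was 63.1 times that in NE 8-S cells, where it had at most 3.06. The call for slc7a9 was lost without DMSO 3-S replicate 3 or DMSO 8-S replicate 1 (adjusted p = 0.0262 and 0.0260 by DESeq2). That for cldn15a was lost without DMSO 3-S replicate 1 or 3 or DMSO 8-S replicate 1 or 2, with a DESeq2 adjusted p between 0.0263 and 0.104. Another gene with a higher mean in DMSO 8-S than in NE 8-S cells, picked out after its values were seen, was si:dkey-39a18.1 (ENSDARG00000045669), with 163, 101 and 76.6 normalised counts at 8-S and 12.4 to 27.1 at 3-S, against 22.4 to 23.2 in NE 8-S cells. Its call was lost in each of the 6 fits with 1 library left out. pcdh7b (ENSDARG00000060610), a protocadherin of the cell surface, had 284, 115 and 134 at 8-S and 21.9 to 54.8 at 3-S, 2.00 times the NE mean at 8-S. hsd17b3 (ENSDARG00000023287), a hydroxysteroid dehydrogenase that makes testosterone in vertebrates, rose by 3.28 ± 0.65 and reached 71.9% of the NE mean.

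Of the 19 paraxial mesoderm markers tested, 4 rose and 0 fell, where 0.244% and 0.0463% of all genes tested did. At an unadjusted p under 0.05 (DESeq2) 13 of the 19 were higher and 0 lower. msgn1 (ENSDARG00000070546), a basic helix-loop-helix factor that drives presomitic mesoderm maturation, had 3420, 3187 and 2077 normalised counts in DMSO 8-S cells and 438, 560 and 200 in DMSO 3-S cells. Its rise was 2.86 ± 0.50 (DESeq2 adjusted p = 6.7e-05), while in NE cells it had 6681, 3016 and 6932 at 8-S and 6620, 3606 and 6852 at 3-S. her7 (ENSDARG00000017917) and her1 (ENSDARG00000014722) encode the repressors that oscillate in the segmentation clock. her7 had 1326, 1223 and 763 normalised counts at 8-S and 325, 277 and 127 at 3-S, a rise of 2.18 ± 0.50. The mean of her7 in DMSO 8-S cells was 1.16 times the NE mean of that stage. her1 had 225, 140 and 93.1 at 8-S and 18.3, 63.1 and 39.7 at 3-S, a rise of 1.93 ± 0.42 to 25.9% of the NE mean. pcdh8 (ENSDARG00000006467), the paraxial protocadherin of early somite formation, had 559, 405 and 399 at 8-S and 62.1, 146 and 83.5 at 3-S. The median difference of the 19 genes was 1.93, with 18 above 0, against 0.63 in NE cells. Their summed level was 9858, 9981 and 7661 normalised counts at 8-S and 2895, 3497 and 2091 at 3-S, or 36.77% and 16.19% of the NE mean of the same stage, and the part of carried-over mesodermal cells in these rises was not tested. In bulk libraries like these, more cells of a type and more RNA per cell cannot be told apart.

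The list of tailbud and posterior genes gave 4 calls out of 15 tested, all higher, where 0.244% of all genes tested were called higher. The list had a median of 1.099 and 13 members above 0, against a median of -0.00 in NE cells. At an unadjusted p under 0.05 (DESeq2) 9 of the 15 were higher and 0 lower. Besides msgn1, her7 and her1 it held her13 (ENSDARG00000007097), a hairy-related gene with 4.74, 24.2 and 16.5 normalised counts at 8-S and 0 in each 3-S library, which is at least 5.06-fold higher when 3-S is set at 3 counts per library. tbx16, a T-box factor of tailbud progenitors, had 1716, 2176 and 1875 at 8-S and 628 to 793 at 3-S without passing the threshold (DESeq2 adjusted p = 0.0279, and 0.00030 with only the 12 libraries of DMSO-treated embryos). It was picked after its values were seen. Of the hox genes, 1 of 41 tested rose and 0 fell, while 38 had a difference above 0 (48.8% of all genes tested did) and 15 of these an unadjusted p under 0.05. In the 12-library fit 4 of 41 rose and 0 fell, with hoxa11a, hoxd3a and hoxd4a besides the 1 that passed with 24 libraries. That gene was hoxd12a (ENSDARG00000059263), which belongs to the posterior hox genes. It had 740, 156 and 250 normalised counts in DMSO 8-S cells and 50.2, 104 and 25 in DMSO 3-S cells, and NE cells had 359, 164 and 353 at 8-S and 90.02 to 109 at 3-S. The rise was 2.67 ± 0.60 in DMSO cells and 1.55 ± 0.60 in NE cells, where it did not pass. The medians of hox groups 9 to 13, 5 to 8 and 1 to 4 were 0.75, 0.58 and 0.59 in DMSO cells and 0.81, 0.19 and 0.14 in NE cells.

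Neural genes were also among the higher genes, each with a mean below that of NE 8-S cells. neurod (ENSDARG00000019566), a basic helix-loop-helix factor of neurons and of pancreatic endocrine cells, had 178, 50.7 and 63.0 normalised counts in DMSO 8-S cells and 0 in each DMSO 3-S library. With 3-S set at 3 counts per library it was at least 32.5-fold higher, or at least 19.02-fold without DMSO 8-S replicate 1 (DESeq2 adjusted p = 6.7e-05 with all libraries), and NE cells had 174 to 378 at 8-S and 164 to 341 at 3-S. neurog1 (ENSDARG00000056130), a proneural factor that acts before neurod, had 47.4, 36.2 and 58.2 at 8-S and 6.39, 0 and 2.09 at 3-S. pax6a (ENSDARG00000045045), which patterns the eye and neural tube, had 22.5, 36.2 and 66.0 at 8-S against 5.22 to 9.13 at 3-S. These 2 genes reached 10.7% and 10.5% of the NE 8-S mean. ZIC5 (ENSDARG00000016022), a zinc finger gene of the dorsal neural plate, pou3f3b (ENSDARG00000095896), a POU factor of the brain, and lbx1b (ENSDARG00000018611), a homeobox gene of the dorsal spinal cord, reached 31.2%, 17.4% and 49.3%. lbx1b had 10.7, 66.5 and 3.88 normalised counts at 8-S and 0 in each 3-S library, at least 9.03-fold higher, or at least 2.43-fold without DMSO 8-S replicate 2. eng2a and eng2b, the engrailed genes of the border between midbrain and hindbrain, were the called genes whose stages overlapped. eng2b (ENSDARG00000038868) had 50.9, 7.25 and 151 normalised counts at 8-S and 7.30, 7.24 and 1.04 at 3-S, so that its rise of 3.74 ± 0.83 rested on 2 of the 3 libraries at 8-S. HES3, foxg1a, AUTS2 (1 of 2), ntn1a, ret and eng2a were also called higher and lay outside the rule for naming, so they are named with their values seen. ntn1a, the secreted axon guidance factor netrin, was nearest to the NE level among them, with 662, 767 and 594 at 8-S and 192, 356 and 242 at 3-S, or 86.8% of the NE 8-S mean.

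Of the 35 neural plate markers tested, 3 rose (neurog1, pax6a and ZIC5) and 0 fell, where 0.244% and 0.0463% of all genes tested did. At an unadjusted p under 0.05 (DESeq2) 16 of the 35 were higher and 1 lower. The 35 markers had a median of 0.70 in DMSO cells and -0.22 in NE cells. Their summed level was 11175, 12028 and 11502 normalised counts at 8-S and 9599, 9241 and 8970 at 3-S, which is 47.7% and 33.3% of the NE level. Of 8 neural crest markers 0 rose and 0 fell, with a median of 1.48. At an unadjusted p under 0.05 (DESeq2) 5 of the 8 were higher, where 895 of the 33737 genes listed, tested or not, were. The neural crest list summed to 11.9% of NE cells at 8-S and 5.71% at 3-S. Over all marker lists of other embryonic tissues together, 150 genes were tested, 8 rose (5.33%) and 0 fell, with a median of 0.53 in DMSO and 0.46 in NE cells. In the lists of blood, endothelium, heart and lateral plate, epidermis, notochord, hatching gland and germ cells 0 genes passed (DESeq2), where 4 were higher and 3 lower at p under 0.05 without adjustment, with medians between -0.95 and 0.75. At 8-S the notochord list summed to 798% of the NE level, heart and lateral plate to 149%, and the others to 18.4% to 66.0%. The blood list stood at 106% at 3-S. Not all lists were lower in DMSO cells, so the pooled count is no gauge of carried-over cells. The part of such cells in the neural and muscle values was not tested.

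Muscle genes that were near 0 at 3-S rose as well. MYOD1 (ENSDARG00000030110), the master regulator of skeletal muscle, had 42.7, 60.4 and 59.2 normalised counts in DMSO 8-S cells and 0, 7.24 and 1.04 in DMSO 3-S cells, a rise of 4.32 ± 0.87 to 7.05% of the NE mean. hsp90aa1.1 (ENSDARG00000010478), a chaperone that zebrafish muscle needs to fold myosin, had 133, 53.2 and 126 at 8-S and 0.913, 6.21 and 9.39 at 3-S, a rise of 4.26 ± 0.76 to 5.08% of the NE mean. In NE cells hsp90aa1.1 had 1970, 1791 and 2376 at 8-S and 757, 1259 and 841 at 3-S. It has a near-identical neighbouring copy in the genome, so its count is uncertain. NEXN (ENSDARG00000057317), which encodes the muscle protein nexilin, had 26.1, 16.9 and 17.5 normalised counts at 8-S and 0 in each 3-S library, at least 6.74-fold higher. Among 18 skeletal muscle markers tested MYOD1 was the 1 that passed, with a list median of 1.70 in DMSO and 0.85 in NE cells. At an unadjusted p under 0.05 (DESeq2) 11 of the 18 were higher and 0 lower, and 15 had a difference above 0. Their summed level was 2133, 1243 and 1833 normalised counts at 8-S and 652, 1286 and 654 at 3-S. That is 14.31% of the NE level at 8-S and 12.97% at 3-S.

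Matrix, signalling and DNA repair genes completed the higher set. has2 (ENSDARG00000036987), which makes hyaluronan, the sugar polymer of the early embryonic matrix, had the smallest adjusted p of all genes (2.6e-05, DESeq2). It had 163, 127 and 65 normalised counts in DMSO 8-S cells and 13.7, 24.8 and 20.9 in DMSO 3-S cells, a rise of 2.58 ± 0.43, and NE cells had 335 to 442 at 8-S and 220 to 480 at 3-S. wnt4a (ENSDARG00000071208), a secreted Wnt ligand, had 40.3, 25.4 and 28.1 at 8-S and 8.22, 3.1 and 4.17 at 3-S, and was the 1 of 18 Wnt pathway genes that passed. That list had a median of -0.26, with 8 members above 0. At an unadjusted p under 0.05 (DESeq2) 2 were higher and 2 lower. lamb2l (ENSDARG00000033950), a laminin chain of basement membranes, and EFEMP2 (ENSDARG00000094324), a fibulin of elastic fibres, reached 19.98% and 7.98% of the NE mean. ddb2 (ENSDARG00000041140), which recognises ultraviolet damage in DNA, had 372, 222 and 199 normalised counts at 8-S and 77.6 to 98.1 at 3-S, a rise of 1.60 ± 0.33. wdr76 (ENSDARG00000053554), a WD-repeat protein, had 435, 365 and 223 at 8-S and 79.4 to 113 at 3-S. In NE cells ddb2 and wdr76 differed by 0.85 ± 0.32 and 1.06 ± 0.38 between the stages, in the same direction and below the threshold. The adaptor gene sh2d3ca (ENSDARG00000028099), the formin-like gene fhdc1 (ENSDARG00000074812), si:dkey-25e11.10 (ENSDARG00000092988) and ENSDARG00000057770 rose by 2.73 to 3.47.

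The 7 genes that fell were moderately to highly expressed at 3-S, with means of 182 to 2944 normalised counts. sppl3 (ENSDARG00000025220), a protease that cuts glycosyltransferases within the Golgi membrane, had 637, 1321 and 1101 normalised counts in DMSO 8-S cells and 2691, 2701 and 3440 in DMSO 3-S cells. The log2 difference was -1.53 ± 0.35, at an adjusted p of 0.00468 (DESeq2), and it stayed 2.34 times above the NE 8-S mean. dnmt4 (ENSDARG00000036791), a DNA methyltransferase of the Dnmt3 family, had 172, 298 and 377 at 8-S and 826, 701 and 1305 at 3-S. It fell by 1.74 (SE 0.38), with 135 to 159 in NE 8-S cells and 164 to 313 in NE 3-S cells. rxrgb (ENSDARG00000004697), a retinoid X receptor, the partner with which RA receptors bind DNA, had 206, 239 and 251 at 8-S and 523, 509 and 635 at 3-S, and fell by 1.26 (SE 0.29). NE cells had 43.9 to 62.1 rxrgb counts at 8-S and 59.0 to 69.7 at 3-S. iqca1 (ENSDARG00000057276) had 43.8, 94.2 and 88.3 against 219 to 316. smox (ENSDARG00000036967), which oxidises spermine, had 47.4, 71.3 and 72.8 at 8-S and 254, 161 and 129 at 3-S. The histone H3 gene h3c13a (ENSDARG00000068941) had 50.9, 60.4 and 90.2 against 247 to 276, and its count is uncertain because histone H3 genes are near-identical. The calls for rxrgb and iqca1 were lost in each of the 6 fits with 1 library left out, with rxrgb at a DESeq2 adjusted p between 0.0171 and 0.114 and a fall of 1.15 to 1.32.

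None of 14 pan-endodermal regulators passed the test in either direction (DESeq2, with 5 lower and 2 higher at an unadjusted p under 0.05, and edgeR likewise called 0 of all genes). foxa2, a forkhead factor of the whole gut sheet, had 2736, 3953 and 2911 normalised counts in DMSO 8-S cells and 3358, 3095 and 2646 in DMSO 3-S cells, a difference of 0.08 ± 0.33. foxa3, its relative in gut, liver and pancreas, had 1961, 3576 and 2527 at 8-S and 6801, 4013 and 4295 at 3-S, and gata5, which acts with Nodal signals in endoderm formation, had 700, 1272 and 960 against 1783, 1796 and 2631. Their stages did not overlap, at -0.91 ± 0.39 and -1.08 ± 0.37. The summed level of the list was 19572, 24413 and 16600 normalised counts at 8-S and 31013, 25076 and 29173 at 3-S (exact two-sided permutation p = 0.1, the smallest possible), with a median difference of -0.38 against 0.00 in NE cells. Picked after their values were seen, sox32, the inducer of sox17, had 9.48, 36.2 and 44.6 at 8-S and 313, 85.9 and 198 at 3-S (DESeq2 adjusted p = 0.099), and vgll4l, a cofactor of Tead factors, had 506, 488 and 424 against 176, 123 and 117 (DESeq2 adjusted p = 0.0191). Both passed when DESeq2 was fitted to the 12 libraries of DMSO-treated embryos alone, sox32 lower with an adjusted p of 0.00254 and vgll4l higher with one of 4.9e-06.

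Regional regulators of the gut tube mostly missed the threshold as well. pdx1 (ENSDARG00000002779), the homeobox regulator of the pancreas and duodenum, had 399, 213 and 229 normalised counts at 8-S and 48.4, 61.0 and 13.6 at 3-S, against 4.08 to 6.24 in NE 8-S cells. The stages did not overlap, and its difference of 2.77 ± 0.68 had a DESeq2 adjusted p of 0.0131 with the 24 libraries and 5.4e-05 when only the 12 libraries of DMSO-treated embryos were fitted. That smaller fit called 121 genes (0.722%), 102 higher (0.608%) and 19 lower (0.113%). pax1b, a paired-box gene of the pharyngeal pouches, had 772, 434 and 423 at 8-S and 246, 231 and 267 at 3-S. dand5, a Nodal antagonist of Kupffer's vesicle, the organ that sets left and right, had 2432, 1188 and 584 against 433, 169 and 306, at 2.21 ± 0.70 (DESeq2 adjusted p = 0.117, and 0.00778 in the 12-library fit). mnx1 and insm1a, regulators of pancreatic endocrine cells, differed by -0.25 ± 0.29 and 0.94 ± 0.45, insm1b by 0.16 ± 0.47 and rfx6 by 1.35 ± 0.96. cyp26a1, the RA-degrading enzyme, differed by 0.04 ± 0.36. Of the 4 endodermal lists (pan-endodermal, pharyngeal, liver and pancreas regulators, liver and gut functional genes) 63 genes were tested and 2 rose, neurod and cldn15a.

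Elsewhere, 0 of 29 genes of the RA pathway, 17 of the FGF pathway, 23 of the BMP pathway, 16 of the Hedgehog pathway and 34 of the cell cycle passed in either direction with DESeq2, and their medians lay between -0.22 and 0.09. At an unadjusted p under 0.05 (DESeq2) these lists held 5, 4, 1, 1 and 2 genes, in either direction. Over the 33737 genes listed, tested or not, 1690 had such a p. In the Notch list 2 of 29 rose, her1 and her7, which are also in the mesoderm and tailbud lists. At an unadjusted p under 0.05 (DESeq2) 8 of the 29 were higher and 1 lower. Of 71 ribosomal protein genes 0 passed, with 67 below 0 and a median of -0.53 against -0.15 in NE cells. At an unadjusted p under 0.05 (DESeq2) 32 of the 71 were lower, where 795 of the 33737 genes listed, tested or not, were. Over the 34 lists, 11 held a gene that rose and 0 a gene that fell.

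**Figure D2:**
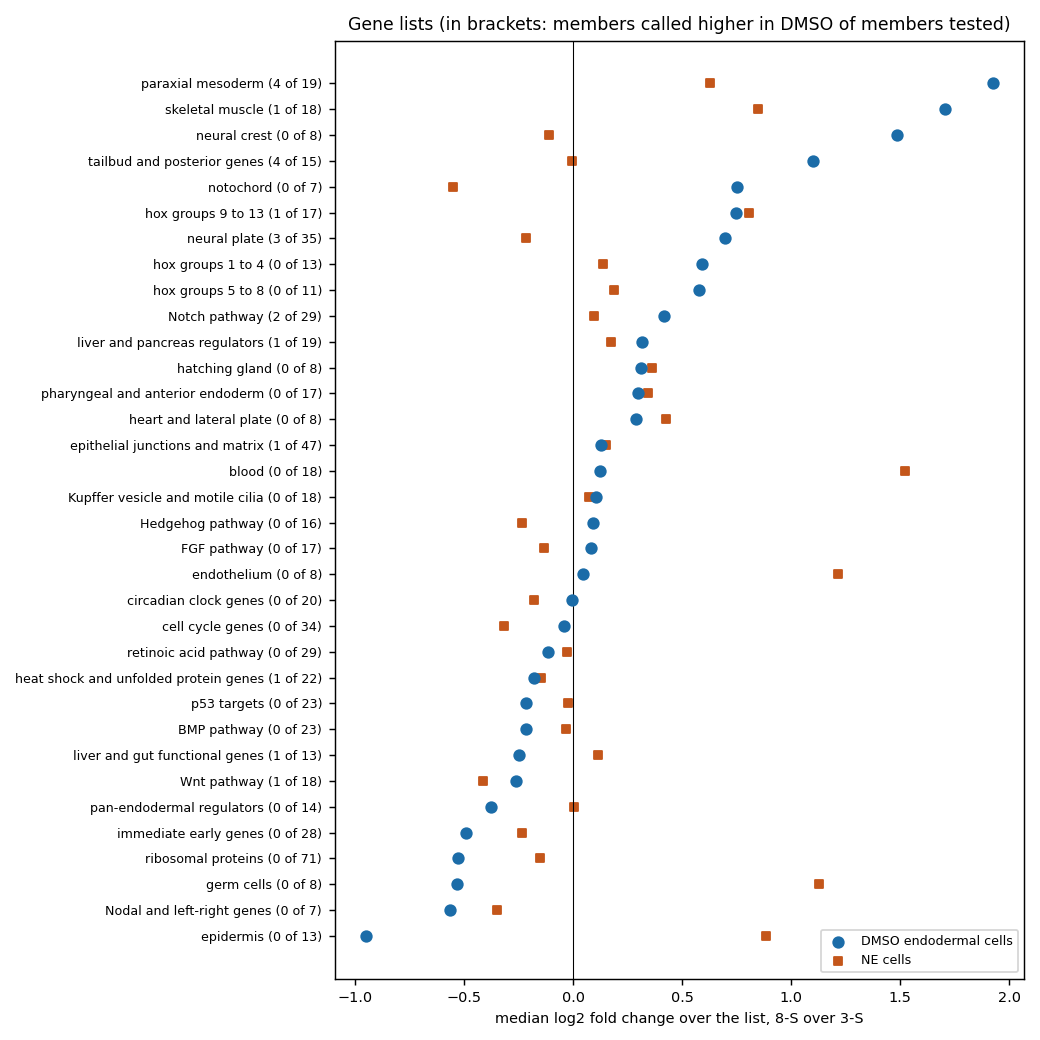
Median log2 ratio of 8-S over 3-S for the tested genes of 34 lists in DMSO endodermal and in NE cells, with the number called higher of those tested in DMSO cells beside each list. The paraxial mesoderm list (1.93) has the highest median in DMSO cells, and the epidermis list (-0.95) the lowest.

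The NE libraries show how the 44 genes stand relative to the cells around the endoderm. Of the 37 higher genes, 31 had a lower mean in DMSO 8-S than in NE 8-S cells (background: 54.6% of genes tested), and 6 had a higher one: slc7a9, cldn15a, pcdh7b, hoxd12a, si:dkey-39a18.1 and her7. The median level of the 37 was 29.2% of the NE mean at 8-S and 3.06% at 3-S. Of the 7 lower genes, 5 were above the NE 8-S mean, and h3c13a and smox were below it. A set of 201 genes that averaged 100 normalised counts or more in NE cells and at most 20% of that in DMSO cells, drawn up after the values were seen, gauged the NE signal in each library. Its median percentage of the NE level was 9.89, 8.00 and 13.7 in the DMSO 8-S libraries and 4.87, 4.26 and 3.73 in the DMSO 3-S libraries. The level depends on the limit: with 10% in place of 20% (112 genes) it was 7.19, 4.25 and 10.2 at 8-S and 2.47, 2.98 and 2.53 at 3-S, and with 30% (289 genes) it was 14.05, 11.2 and 18.3 at 8-S and 9.03, 7.09 and 6.51 at 3-S. With the 20% limit it was 4.68 to 12.8 in RA 8-S, 2.91 to 5.07 in RA 3-S, 6.77 to 11 in BMS493 8-S and 4.98 to 6.28 in BMS493 3-S libraries. The 201 genes had a median stage difference of 1.34 in DMSO and 0.28 in NE cells, and 20 of the 37 higher genes are among them, where they make up 1.33% of all genes tested and were chosen by their low level in the same DMSO libraries. The largest median of the 201 genes in a DMSO 8-S library was 13.7%, and as a median it is no ceiling on the NE signal. At 8-S, 7 of the 37 lay at or below 13.7% of the NE mean (hsp90aa1.1, MYOD1, neurog1, EFEMP2, pax6a, eng2b and HES3). The count was 4 with the 10% limit and 10 with the 30% limit. When each library's median percentage of the NE mean was subtracted from its counts, an alternative chosen after the data were seen, 23 genes were called, 11 higher and 12 lower. Of these 23 calls 13 were new, 9 of them lower. In 4 of the 9, DMSO 3-S replicate 1, the library that stood apart, was more than 10 times as high as the other 2 libraries of its group. Another of the 9, par1, changed sign through the subtraction. Before it, par1 had 204, 122 and 222 normalised counts at 8-S and 61.2, 114 and 52.2 at 3-S. Of the 44 calls 10 were kept, namely neurod, slc7a9, si:dkey-25e11.10, sh2d3ca, wnt4a, cldn15a and HES3 among the higher genes and h3c13a, dnmt4 and smox among the lower ones. At 3-S, HES3, sh2d3ca, wnt4a and si:dkey-25e11.10 stood at 0.90%, 1.66%, 2.59% and 2.81% of the NE mean, below the share subtracted. Their fitted differences after subtraction rest on 3-S counts set to near 0 and are no estimate of size. These kept calls are thus no support for a rise beyond the NE signal. Of the 34 calls lost, 22 had a fitted difference at least as large after subtraction as before. Among them were has2 (3.72 after, 2.58 before) and her7 (2.32 after, 2.18 before). Another 9 had a smaller one, and hsp90aa1.1, MYOD1 and EFEMP2 were at 0. Where the 3-S level is near the share subtracted, as for has2 (5.82% of the NE 3-S mean), the subtraction itself enlarges the ratio. A larger difference after subtraction is thus no support for a rise.

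**Figure D3:**
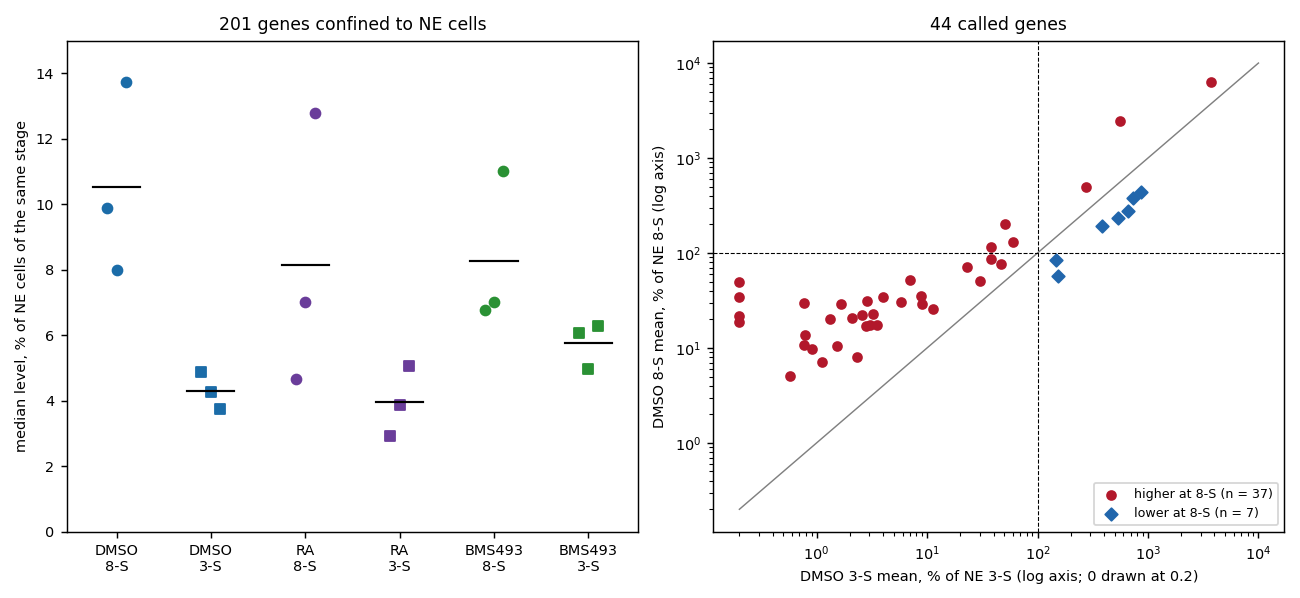
Left, median percentage of the NE level over 201 genes of low level in DMSO cells, for each library of DMSO, RA and BMS493 endodermal cells at 8-S and 3-S. Right, mean of the 44 called genes in DMSO cells as a percentage of the NE mean at 3-S (x) and 8-S (y) on log axes, with 0 drawn at 0.2 and 100% dashed. The 3 DMSO 8-S libraries (8.00 to 13.7) lie above the 3 DMSO 3-S libraries (3.73 to 4.87).

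In NE cells themselves, 3 of 21298 genes changed between the stages and all 3 rose (0.0141%): the embryonic globin hbae3, morc3b and inka1a. hbae3 had 127, 120 and 91.8 normalised counts in NE 8-S cells and 29, 18.4 and 19.3 in NE 3-S cells (2.35 ± 0.40, DESeq2 adjusted p = 7.0e-05), whereas in DMSO endodermal cells it had 1742, 1658 and 2398 at 8-S and 1343, 1732 and 1655 at 3-S (0.29 ± 0.35). The 37 genes higher in DMSO cells had a median of 0.27 in NE cells, with 25 above 0 (53.2% of all genes), and the 7 lower genes had a median of -0.60 there, with 7 below 0. Whether the stage changes differ was tested as the DMSO change minus the NE change. In the fit of 24 libraries 0 of 15135 genes passed (DESeq2, smallest adjusted p 0.0511, 698 genes at an unadjusted p under 0.05), and edgeR called 0 (493 genes at an unadjusted p under 0.05). Of the 44 genes, 34 had an unadjusted p under 0.05 in that DESeq2 fit. They were picked by the DMSO change, which is part of this difference, so that count is raised by the choice. DMSO and NE libraries with the same number deviated together within each stage, and with that number as a block in the 12 libraries of DMSO-treated embryos 48 of 13555 genes differed (0.354%), 40 of them upward (0.295%) and 8 downward (0.059%). The 12 libraries gave 21 such genes without the block (0.155%), and 19 genes were in both counts. The labels do not state this pairing, which was inferred from the same libraries and is not shown by the 8-S libraries alone. With the block few degrees of freedom are left, so its p-values may be too small.

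Of the 44 genes, 14 were among the 48, all of them higher genes: has2, neurod, hsp90aa1.1, NEXN, neurog1, sh2d3ca, fhdc1, pax6a, lamb2l, wnt4a, ZIC5, HES3, her13 and AUTS2 (1 of 2). Both sets draw on the same DMSO libraries, so this overlap is no independent support. The difference for has2 was 2.27 (adjusted p = 0.00314, DESeq2 with the block). msgn1 was at 3.03 with the block and at 2.90 without it (DESeq2 adjusted p = 0.0353 and 0.00196 in the 12 libraries). For cldn15a the difference in the 24-library fit was 2.11, with a 95% interval of 0.62 to 3.59, and for slc7a9 it was 0.78 with an interval of -1.82 to 3.37. Neither passed, with the block or without it. For the lower genes sppl3 and rxrgb the difference was -1.20 (-2.17 to -0.24) and -0.97 (-1.82 to -0.13), which did not pass either.

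The smallest adjusted p with the block were those of col18a1, sox19a, HES3, neurod and AUTS2 (1 of 2). col18a1 (2.80 ± 0.31, adjusted p = 1.55e-15, DESeq2), a basement membrane collagen, had 336, 563 and 659 normalised counts in DMSO 8-S and 168, 117 and 74.1 in DMSO 3-S cells, while NE cells had 1909, 2680 and 2585 at 8-S and 5762, 3054 and 2897 at 3-S. sox19a (2.38 ± 0.32), a Sox factor of the neural plate, had 316, 552 and 603 at 8-S and 101, 182 and 177 at 3-S in DMSO cells, against 2150, 4491 and 3420 at 8-S and 5157, 5522 and 5031 at 3-S in NE cells. In both genes the DMSO libraries were higher at 8-S and the NE libraries were lower at 8-S. The 40 genes were picked by the DMSO change minus the NE change, so such signs follow in part from the choice. Of the 40, 40 had a positive difference in DMSO cells and 31 a negative one in NE cells. Their median level at 8-S was 30.8% of the NE mean, with 12 of them above it. dag1, the dystroglycan receptor for laminin, was 1 of these 12 and was picked after its values were seen, with 4124, 6821 and 5498 at 8-S and 3227, 1827 and 1441 at 3-S in DMSO cells, against 3141, 3081 and 4020 at 8-S and 8530, 3649 and 4333 at 3-S in NE cells. The 8 genes with a negative difference, picked in the same way, had a positive stage change in NE cells in 8 cases and a negative one in DMSO cells in 7.

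**Figure D4:**
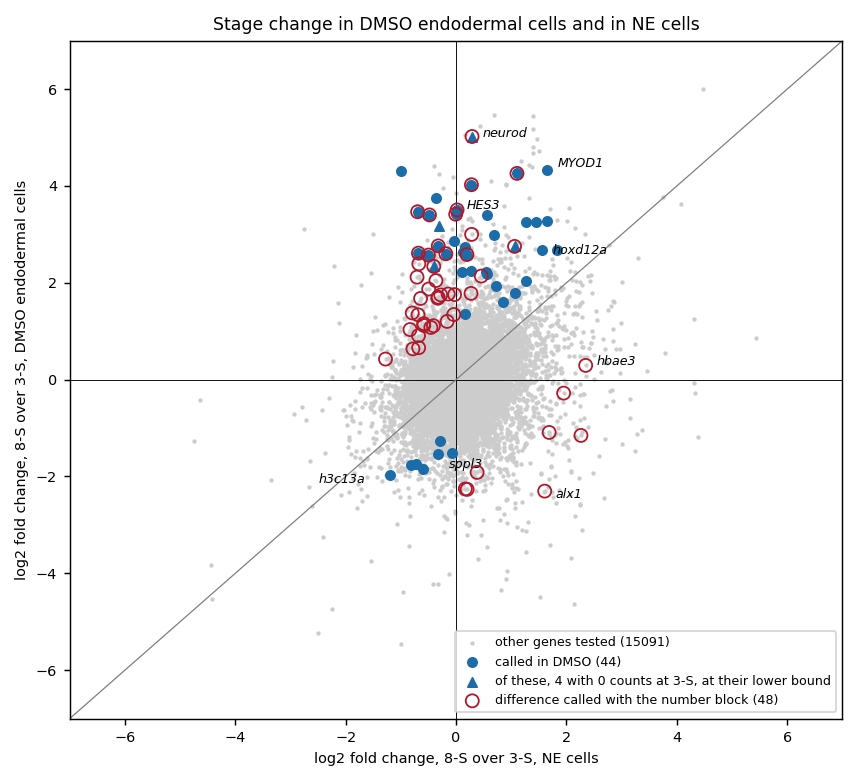
Log2 ratio of 8-S over 3-S in NE cells (x) and DMSO endodermal cells (y) for the genes tested, with the 44 genes called in DMSO cells in blue (triangles for 4 genes at 0 at 3-S, drawn at their lower bound) and rings around the 48 genes whose change differed with the replicate number as a block. The 37 higher genes spread around a median of 0.27 along the NE axis.

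The same stage comparison in treated embryos gave 15 genes after RA (0.0956% of genes tested) and 3 after BMS493 (0.0214%). The embryos collected at 8-S had been washed and raised without the agent, so stage and its withdrawal cannot be told apart here. This also holds for differences between the DMSO change and the change in treated embryos. Of the RA genes 13 were higher (0.0828%) and 2 lower (0.0127%), and of the BMS493 genes 1 was higher (0.00714%) and 2 were lower (0.0143%). The 37 genes had medians of 0.97 and 1.14 there, with 28 and 33 above 0 (all genes: 50.7% and 48.7%). The 7 lower genes had medians of -0.19 and -0.69, with 7 and 6 below 0. Both sets were picked by their DMSO change, which enlarges the DMSO medians and not these. The DMSO change differed from the RA change for 2 of 19056 genes (0.0105%), has2 and eng2a (DESeq2 adjusted p = 0.00471 each), and from the BMS493 change for 0 of 29144 (DESeq2, 817 at an unadjusted p under 0.05). has2 had 4.78, 10.9 and 9.56 normalised counts in RA 8-S cells and 22.3, 14.9 and 9.37 in RA 3-S cells, a difference of 3.43 ± 0.67 from DMSO. eng2a had 0 in each RA 8-S library and 10.5, 3.73 and 0.852 in RA 3-S cells, against 15.4, 1.21 and 101 in DMSO 8-S and 1.83 to 2.09 in DMSO 3-S cells.

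For the gut genes, the treated libraries lay outside the range of the DMSO libraries. cldn15a had 665, 2138 and 3018 normalised counts in RA 8-S cells and 3856, 1814 and 2097 in RA 3-S cells, and 63.6, 31.8 and 29.1 in BMS493 8-S cells and 28.9, 54.1 and 30.8 in BMS493 3-S cells. The 6 RA libraries thus lay above the 6 DMSO libraries and the 6 BMS493 libraries below them. slc7a9 had 156, 269 and 227 in RA 8-S cells and 251, 259 and 216 in RA 3-S cells, and 2.12 to 7.89 in the 6 BMS493 libraries, again above and below all DMSO libraries. The DMSO change of slc7a9 minus the RA change was 2.1995 ± 0.55 (DESeq2 adjusted p = 0.0984) and that of cldn15a was 2.63 ± 0.70 (DESeq2 adjusted p = 0.20), short of the threshold. Among the mesodermal genes msgn1 had 28.7 to 55.5 in RA 8-S and 13.1 to 44.7 in RA 3-S cells, and 1577, 2717 and 594 in BMS493 8-S and 403, 507 and 340 in BMS493 3-S cells. Its stages did not overlap after BMS493, as in DMSO cells, and overlapped after RA. neurod had 105, 446 and 618 in RA 8-S and 49.9, 351 and 242 in RA 3-S cells, and thus was not at 0 at 3-S in any RA library, with 0, 3.64 and 54.3 in BMS493 8-S and 1.75, 1.06 and 0.963 in BMS493 3-S cells.

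**Figure D5:**
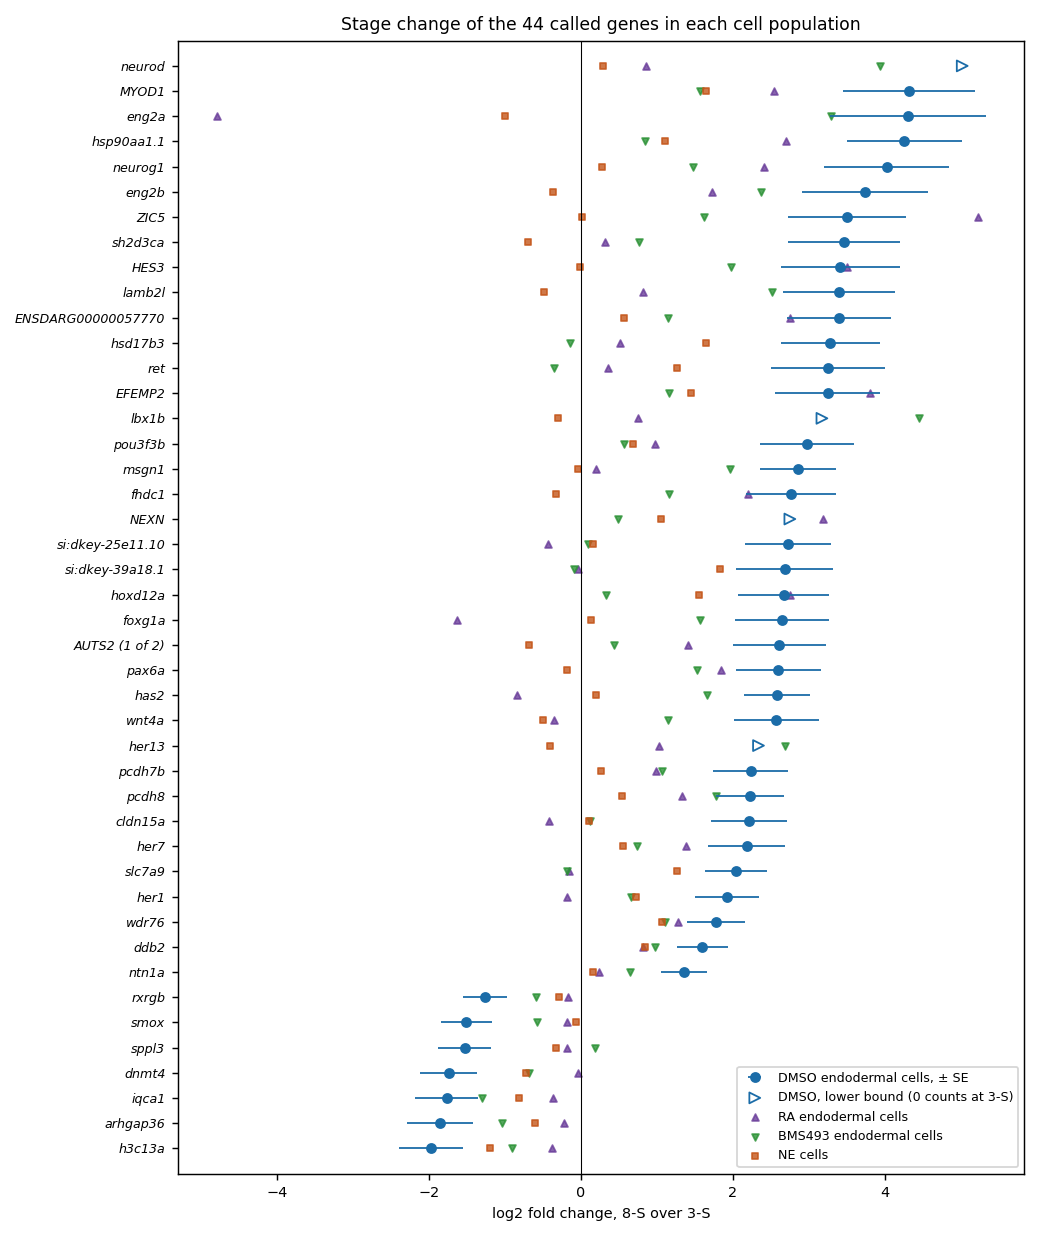
Log2 ratio of 8-S over 3-S of the 44 genes in DMSO endodermal cells (± SE, open triangles for lower bounds of 4 genes at 0 at 3-S) and in RA endodermal, BMS493 endodermal and NE cells. The 37 higher genes, picked by their DMSO change, have medians of 2.86 in DMSO, 0.97 in RA, 1.14 in BMS493 and 0.27 in NE cells. The choice raises the DMSO median and not the others.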

How the data were processed

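Cells were sorted by GFP, cDNA was made from polyA RNA by SMART-seq2, and Nextera XT libraries were sequenced with single-end reads. The authors aligned the reads with STAR (version 2.5.4) to the Zv9 genome and deposited raw counts per gene. These deposited counts are whole numbers, neither normalised nor filtered. The unstranded column was used after dropping the 4 summary lines, and the stranded columns served as alternatives. Reads mapping to several places are not counted, so genes with near-identical copies are uncertain, as are overlapping and antisense genes, since strand was not used. Of 33737 gene IDs, 22435 (66.5%) had a name in the study's supplement or a supplied symbol table.

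Groups and replicate numbers came from sample titles. DESeq2 (version 1.42.0, R version 4.3.3) was run on 24 libraries with a single group factor, default size factors and filters, unshrunken log2 ratios and a Benjamini-Hochberg adjusted p under 0.01, after the study's methods. The edgeR (version 4.0.16) quasi-likelihood test was an alternative, as were other samples in the fit, scaling, filters, strand columns, a replicate block and leaving out each library. The text names the genes called lower, the 25 called higher with the smallest adjusted p, further called members of the gene lists, the 4 most abundant members of lists described and the regulators the study discusses, the 5 genes that differ most from NE cells, those called in NE cells and the most abundant gene. Not every such gene is given. The members compared and the lists were chosen with earlier results of these data known, and genes outside the rule are marked as such in the text.

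Whether replicate numbers pair samples was checked by correlating deviations from group means over genes. Same-numbered DMSO and NE libraries had r of 0.237, 0.228 and 0.390 at 8-S and 0.695, 0.596 and 0.490 at 3-S. Differently numbered ones had r of -0.234 to -0.0641 at 8-S and -0.603 to 0.2 at 3-S. The number was therefore used as a block within stage for their difference. Across stages same-numbered DMSO libraries had r of -0.39, -0.217 and -0.156, so numbers do not pair 8-S with 3-S. Differently numbered DMSO libraries reached 0.329 across stages, so the r at 8-S alone do not show pairing. Total gene counts per library ranged from 9971059 to 17806766. The floor for a gene at 0 was 3 counts per library. Reads without molecular identifiers are not independent molecules, so such floors cover counting error only. In the 24 pairs of replicates, chi-square statistics per degree of freedom were 17.5 to 160, so that no pair agreed within sampling noise. In counts simulated for 33737 genes, with 200 changed by 4-fold in DMSO 8-S cells, DESeq2 found 65 of 100 raised and 54 of 100 lowered genes and called 14 unchanged ones, and edgeR found 42 and 34 and called 1. The changed genes were drawn from those above a minimum mean, and all groups otherwise shared the same mean. These rates need not hold for genes with few reads. The 14 unchanged genes were a larger share of the DESeq2 calls than its adjusted p threshold allows. The adjusted p of DESeq2 given in the text may thus be too small. Coordinates and sequences were not used here.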

Additional observations from a re-analysis of the deposited data

Results flagged for a closer look

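The results below stood out because a stage change differed between groups by a test of the difference itself. With only the 12 libraries of DMSO-treated embryos and the replicate number as a block within stage, the change in DMSO endodermal cells differed from that in NE cells for 48 genes (DESeq2, adjusted p under 0.01). The same 12 libraries without the block gave 21 genes and the fit of 24 libraries gave 0. The pairing behind the block is not stated by the labels. In the RA libraries stage and the withdrawal of RA before 8-S cannot be told apart. For has2 (ENSDARG00000036987) the DMSO change exceeded the RA change by 3.43 ± 0.67 on the log2 scale (DESeq2 adjusted p = 0.00471), with DMSO 8-S above DMSO 3-S in every library. For eng2a (ENSDARG00000026599) the excess was 9.11 ± 1.81 (DESeq2 adjusted p = 0.00471), a fitted value that depends on 0 counts in the 3 RA 8-S libraries and is no bound, with DMSO stages that overlapped.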

How the results depend on the processing

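The count of 44 genes for DMSO cells was 43 with TMM factors, 39 with total-count factors and 45 with a count filter. The 6 compared libraries alone gave 56 genes (40 higher and 16 lower, 26 shared with the 44). The count became 0 with edgeR, 121 (102 higher and 19 lower, 43 shared with the 44) when 12 libraries were fitted, 28 and 19 with the first and second stranded columns, 92 at an adjusted p under 0.05 and 23 (11 higher and 12 lower) with NE signal subtracted, and leaving out 1 library gave 9 to 42. The replicate block across stages gave 45 genes (36 shared); the replicate numbers do not pair the stages. For NE cells (3 genes) the count was 0 with edgeR, 39 with 6 libraries, 17 with 12 libraries and 5 at an adjusted p under 0.05, and leaving out 1 library gave 0 to 4. For RA cells (15) it was 0 with edgeR, 2 with total-count factors, 5 without independent filtering, 9 and 4 with the stranded columns, 67 at an adjusted p under 0.05, 8 with the replicate block and 2 to 37 with 1 library left out. For BMS493 cells (3) it was 0 with edgeR, 1 with 6 libraries, 7 with the first stranded column, 27 at an adjusted p under 0.05 and 0 to 34 with 1 library left out. For the difference from NE cells (0) it was 21 with 12 libraries, 48 with the replicate block within stage and 0 to 3 with 1 library left out. The causes were not tested.

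Of the 44 genes the naming rule selects 37. None of these changed direction under any alternative, but hsp90aa1.1, MYOD1 and EFEMP2 were at 0 with NE signal subtracted. All 37 kept their call with TMM factors or 12 libraries, and all 37 lost it with edgeR. The call was lost for 13 with the 6 compared libraries alone and for 28 with NE signal subtracted. It was lost for 16 and 19 with the first and second stranded columns, and for 15 to 28 with 1 library left out. Among genes that were not called, leaving out 1 library changed the sign of foxa2 (-0.10 to 0.18, negative without DMSO 3-S replicate 3 or DMSO 8-S replicate 2), insm1b (-0.16 to 0.56, negative without DMSO 3-S replicate 1) and cyp26a1 (-0.38 to 0.24, negative without DMSO 3-S replicate 3 or DMSO 8-S replicate 2, and -0.021 with total-count factors). Many of the higher genes rest on few reads: 22 of the 37 higher genes had a mean under 100 normalised counts at 8-S, and 23 had fewer than 30 raw counts in all at 3-S.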
